A study of Mus musculus with 192 samples.

Results

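Lungs of SKH-1 mice were compared between times after 2 fentanyl doses, HNLD (62 mg/kg, given as LOEL in the labels) and LD10 (110 mg/kg). The paper calls its model male-biased. Small RNA libraries of mice numbered FP16 to FP58 were taken, which gave 31 of the 63 lung libraries and of the 190 libraries in the tables of the series. At HNLD there were 4 mice each at 0h, 6h, 24h and 7d. At LD10 there were 4 mice at 0h, 3 at 6h, 4 at 24h and 4 at 7d, since the fourth 6h mouse (FPB2) lies outside this number range. SKH-1 is a hairless, immunocompetent and outbred strain, and each library came from 1 animal. All 31 mice received fentanyl citrate in Ringer's solution under the skin, the 0h mice included. The 0h lungs were collected 40 min after the injection, so 0h is an early exposed state and not an unexposed one. No sham mice entered these comparisons, and the time since fentanyl cannot be told apart from time since injection, handling or time of day.

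MicroRNAs (miRNAs) are short RNAs that pair through their seed, bases 2 to 8 of the mature strand, with target mRNAs and lower their output. A hairpin can give a mature strand from either arm, written 5p and 3p, and one arm is usually far more abundant than the other. In lung tissue, miR-126a marks endothelium, miR-143 and miR-145a mark smooth muscle, the miR-34/449 family marks multiciliated epithelium, the miR-200 family marks epithelium in general, and miR-142a, miR-150 and miR-223 mark blood cells. The let-7 family and miR-15/16 family are known for restraint of cell growth, and the miR-17 seed family for promoting it.

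The mature strands that the results turn on are shown here to make their shared seeds visible, with the seed in capitals. Sequences are from RefSeq (GRCm38.p6), where 295 of the 339 tested miRNAs matched by name. let-7b-3p and miR-98-3p come from the less abundant arm of let-7 family hairpins and share 1 seed, while let-7f-5p and miR-98-5p carry the family's usual seed.
let-7b-3p: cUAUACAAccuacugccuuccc
miR-98-3p: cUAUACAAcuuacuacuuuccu
let-7f-5p: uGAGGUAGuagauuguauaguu
miR-98-5p: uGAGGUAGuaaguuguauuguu
miR-223-3p and both arms of miR-142a are blood cell strands whose LD10 values are described in full, and their seeds differ.
miR-223-3p: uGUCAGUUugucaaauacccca
miR-142a-3p: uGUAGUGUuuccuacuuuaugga
miR-142a-5p: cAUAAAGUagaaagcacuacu
miR-15b-5p and miR-195a-5p share a seed, as do miR-106b-5p and miR-17-5p, and they are shown for their values at 7d. miR-146a-5p and miR-146b-5p share another seed and are shown for the same reason.
miR-15b-5p: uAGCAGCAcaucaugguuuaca
miR-195a-5p: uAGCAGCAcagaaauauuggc
miR-106b-5p: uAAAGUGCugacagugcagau
miR-17-5p: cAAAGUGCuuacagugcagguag
miR-146a-5p: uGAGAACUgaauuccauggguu
miR-146b-5p: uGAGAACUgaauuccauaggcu

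In the mm9 assembly (NCBIM37, GENCODE), Mir98 (plus strand) spans 148347757 to 148347864 of chromosome X, inside a Huwe1 intron. Mirlet7b (plus strand) spans 85537749 to 85537833 of chromosome 15. Mir223 (plus strand) spans 93438156 to 93438265 of chromosome X, inside an F630028O10Rik exon, and Mir142 (plus strand) 87570366 to 87570429 of chromosome 11, inside an A430104N18Rik intron. Mir15b (plus strand) sits in a Smc4 intron (chromosome 3, 68813678 to 68813775) and Mir106b (minus strand) in an Mcm7 intron (chromosome 5, 138606965 to 138607046).

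Values are normalised reads, which are reads per mature miRNA divided by a scaling factor for each library. The libraries held 196853 to 6032558 recovered reads, with a median of 3604309, and 339 miRNAs with at least 10 normalised reads in at least 4 libraries were tested. The libraries are described before the results because 3 HNLD libraries stood apart in a tree of their profiles. FP30 (HNLD 0h, 196853 reads) and FP33 (HNLD 6h, 549601 reads) were shallow, while the other libraries had at least 1896514 reads. The library labelled lungs of FP38 (HNLD 6h) had 2257688 reads, and its profile correlated at 0.968 with the median heart profile and at 0.885 with the median lung profile. The library labelled heart of the same mouse correlated at 0.842 with the heart median and at 0.991 with the lung median. The other 28 lung libraries correlated at 0.972 to 0.997 with the lung median and at 0.835 to 0.862 with the heart median. In the FP38 lung library, miR-133a-3p, a miRNA of heart and skeletal muscle, stood at 154200 normalised reads, and miR-200c-3p, an epithelial miRNA, at 40.2. In the other 28 libraries the 8 muscle miRNAs summed to 2116 to 13850 and the 9 strands of the epithelial 200 family to 7004 to 10070 normalised reads, against 160800 and 1003 in FP38. The other 28 libraries thus carried the lung markers of their label, and the 2 liver miRNAs were at 1.51 normalised reads or less in all 31 libraries. Fold changes below are from all 31 libraries unless stated, and many are also given without FP30, FP33 and FP38. That exclusion leaves 3 mice at HNLD 0h and 2 at HNLD 6h. A result given only with all libraries was not shown to hold without these 3. In whole lungs, fewer cells of a type and less RNA per cell cannot be told apart.

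**Figure D1:**
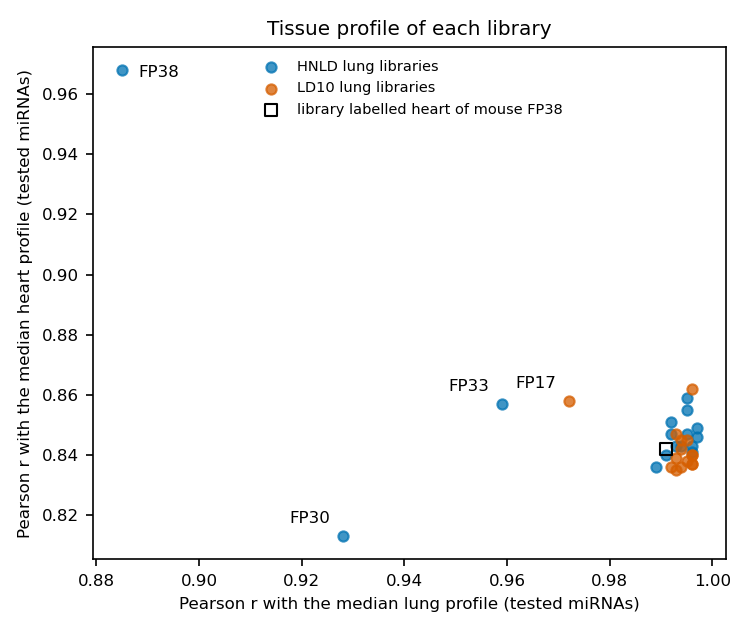
Pearson correlation of each lung library with the median lung profile (x axis) and with the median heart profile (y axis), over the log2 values of 339 miRNAs, for HNLD (blue) and LD10 (orange), with the library labelled heart of mouse FP38 as an open square. FP38 sits at 0.885 and 0.968, FP30 and FP33 at 0.928 and 0.959 on the x axis, and the FP38 heart library at 0.991 among the lungs.

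Which pulmonary miRNAs differed between the later times and 0h inside each dose was tested first. At HNLD, 1 of 339 miRNAs (0.295%) passed the threshold at 6h, miR-98-3p, which was higher, and 0 passed at 24h and at 7d. At LD10, 0 of 339 passed at 6h, 24h and 7d, and 0 passed in the mean of both doses at any of the 3 times (limma on log2(value + 1), Benjamini-Hochberg adjusted p of 0.05). The F test of any change over time called 0 miRNAs at HNLD and 0 at LD10, and the test of time by dose called 0. At an unadjusted p under 0.05, 26 miRNAs were higher (7.67%) and 20 lower (5.9%) at HNLD 6h, 8 higher (2.36%) and 4 lower (1.18%) at HNLD 24h, and 8 higher (2.36%) and 2 lower (0.59%) at HNLD 7d. At LD10 the counts were 2 higher (0.59%) and 0 lower at 6h, 1 higher and 1 lower (0.295% each) at 24h, and 5 higher and 5 lower (1.47% each) at 7d. The F tests had 10 miRNAs at such a p for HNLD and 2 for LD10, and edgeR's F tests called 8 and 0. edgeR's quasi-likelihood test on the recovered reads called 6 miRNAs at 6h for HNLD, all higher, and 0 in the other 5 comparisons inside a dose and in the 3 means. These 6 included the heart miRNAs miR-133a-3p and miR-208a-3p, and without FP30, FP33 and FP38 both tools called 0 in all 9 comparisons. With those 3 libraries left out, 32 miRNAs were higher (9.44%) and 11 lower (3.24%) at an unadjusted p under 0.05 at HNLD 6h, 13 higher (3.83%) and 15 lower (4.42%) at HNLD 24h, and 17 higher (5.01%) and 21 lower (6.19%) at HNLD 7d. At LD10 there were 5 higher (1.47%) and 3 lower (0.885%) at 6h and at 24h, and 18 higher (5.31%) and 12 lower (3.54%) at 7d, and the F test at LD10 called miR-223-3p.

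The LD10 and HNLD mice are separate animals, so the direction of change can be set side by side. At 6h, 167 of 339 miRNAs had a log2 fold change of the same sign at both doses, at 24h 184, and at 7d 214. Without the 3 libraries these counts were 168, 177 and 216. The correlation of the log2 fold changes across the 339 miRNAs was 0.10 at 6h, 0.08 at 24h and 0.40 at 7d, and -0.01, 0.07 and 0.33 without the 3 libraries. miRNAs of 1 library share its depth and scaling and are not independent replicates, so these are descriptions. At 7d, 2 miRNAs had groups that did not overlap at either dose without the 3 libraries, miR-672-5p (higher) and miR-101a-5p (lower), each 0.295% of the 339, and with all libraries there were 0.

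**Figure D2:**
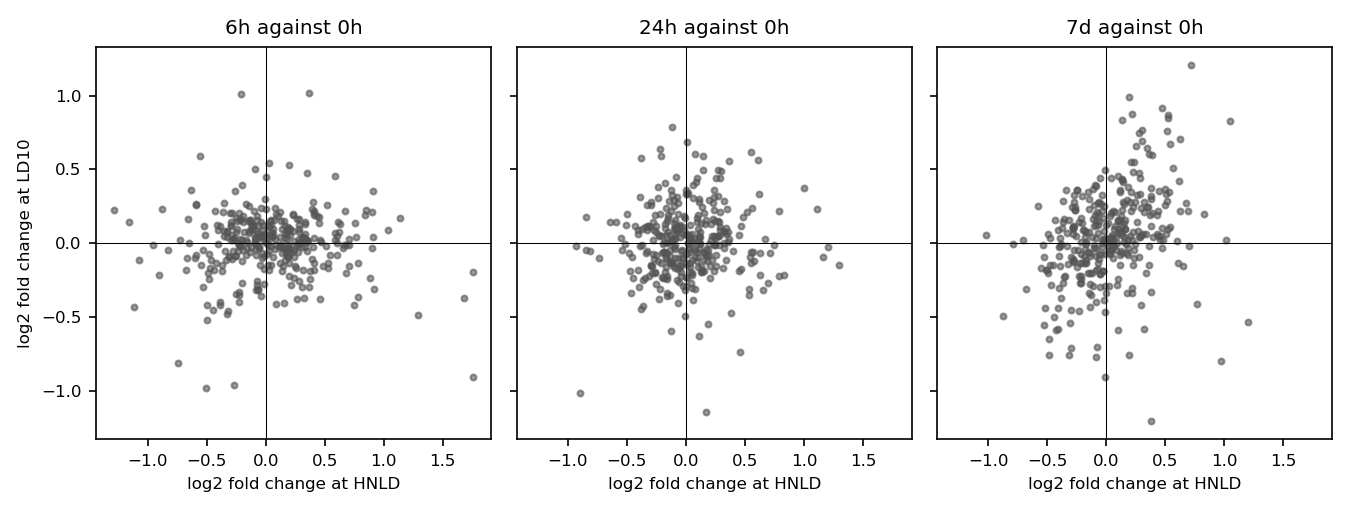
Log2 fold change of 339 miRNAs at HNLD (x axis) and at LD10 (y axis) for 6h, 24h and 7d against 0h, without FP30, FP33 and FP38, with 1 point per miRNA. The points scatter round the origin at 6h and 24h (correlation -0.01 and 0.07) and lean along the diagonal at 7d (0.33).

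The only call with all libraries was a scarce let-7 family strand, miR-98-3p. Its values at HNLD 6h were 25.2, 48.1, 24.2 and 20.9 normalised reads in FP33, FP38, FP45 and FP49, against 8.37, 12.4, 8.78 and 20.9 in FP25, FP30, FP32 and FP47 at 0h. The groups did not overlap, as was so for 0.59% of the 339 upward, but FP49 and FP47 both stood at 20.9. The highest value was that of FP38, and the 12.4 of FP30 rested on 3 reads. The log2 fold change was 1.18 ± 0.25 (SE; limma, adjusted p = 0.0248). Without the 3 libraries it was 0.90 (adjusted p = 0.269), and the call was lost when FP25, FP32 or FP38 alone was left out. At HNLD 24h the values were 22.4, 17.2, 21.9 and 21.9 and at 7d 20.9, 18.4, 18.3 and 16.4, with log2 fold changes of 0.76 and 0.60 (adjusted p = 0.996 and 0.885, limma). At LD10 the level was flat, at 17.3 to 23.3 normalised reads at 0h, 17.5 to 23.7 at 6h, 12.7 to 23.0 at 24h and 20.9 to 28.4 at 7d. At 6h the difference of the log2 fold changes between the doses, LD10 minus HNLD, was -1.21 ± 0.37 (SE; limma, adjusted p = 0.925).

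let-7b-3p has the same seed as miR-98-3p. Comparisons at the 3 times share their 0h mice, so they are not independent of each other. let-7b-3p was among the higher miRNAs with the smallest unadjusted p at all 3 times in the mean of both doses. At 7d it stood at 110.5, 102.5, 111.9 and 89.2 normalised reads in HNLD mice, against 71.4, 62.2, 64.2 and 84.3 at 0h, and the groups did not overlap, as was so for 0.885% of the 339 upward. In LD10 mice it stood at 115.7, 95.3, 122.9 and 163.9 at 7d, against 83.5, 120.1, 99.1 and 79.8 at 0h, where the groups overlapped. The log2 fold change in the mean of both doses was 0.36 at 6h, 0.39 at 24h and 0.46 ± 0.15 (SE) at 7d (limma, adjusted p = 0.798, 0.999 and 0.728). Without the 3 libraries it was 0.31, 0.36 and 0.43 (adjusted p = 0.458, 0.768 and 0.171). The 24h values at HNLD were 111.1, 101.5, 107.5 and 97.7, all above the 0h values, as was so for 1.47% of the 339 upward. The other tested strands with this seed are let-7a-1-3p and let-7f-1-3p, and 2 of the 4 strands were higher and 2 lower at 7d in the mean of both doses (3 higher and 1 lower without the 3 libraries).

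The 9 abundant strands of the let-7 family with the seed GAGGUAG, the strands that carry out most let-7 repression, leaned upward at 7d. With all libraries 8 of 9 had a log2 fold change above 0 at HNLD and 8 of 9 at LD10, where 58.1% and 58.4% of all 339 did. Their median log2 fold change in the mean of both doses at 7d was 0.21, against 0.05 for all 339. There, 0 of 9 passed the threshold and 0 of 9 reached an unadjusted p under 0.05. Without the 3 libraries 6 of 9 reached an unadjusted p under 0.05 upward, where 8.55% of the 339 did, and still 0 passed the adjusted threshold. let-7f-5p, the most abundant of them, stood at 26480, 20390, 19500 and 18190 normalised reads in LD10 mice at 7d, against 14190, 15170, 17470 and 18160 at 0h. These groups did not overlap (2.36% of the 339 upward), although FP41 and FP55 were nearly level. In HNLD mice it stood at 15050, 25350, 23110 and 19420 at 7d, against 14410, 24900, 13470 and 19660 at 0h, which overlapped, and FP30 gave the 24900. The summed level of the 9 strands overlapped with 0h at both doses at 7d. At LD10 the sum was 68100 to 85130 normalised reads at 7d, against 53590 to 70710 at 0h. At HNLD it was 55900 to 83840 at 7d, against 51730 to 72730 at 0h. At 6h the sum was lowest in FP38, at 29790 normalised reads. Each library was also weighted by how well it followed its group, a limma option that lowered the weight of FP38, FP30, FP17 and FP33 most. With these weights 8 of the 9 strands were higher at 7d in the mean of both doses, and 6 passed the adjusted threshold.

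**Figure D3:**
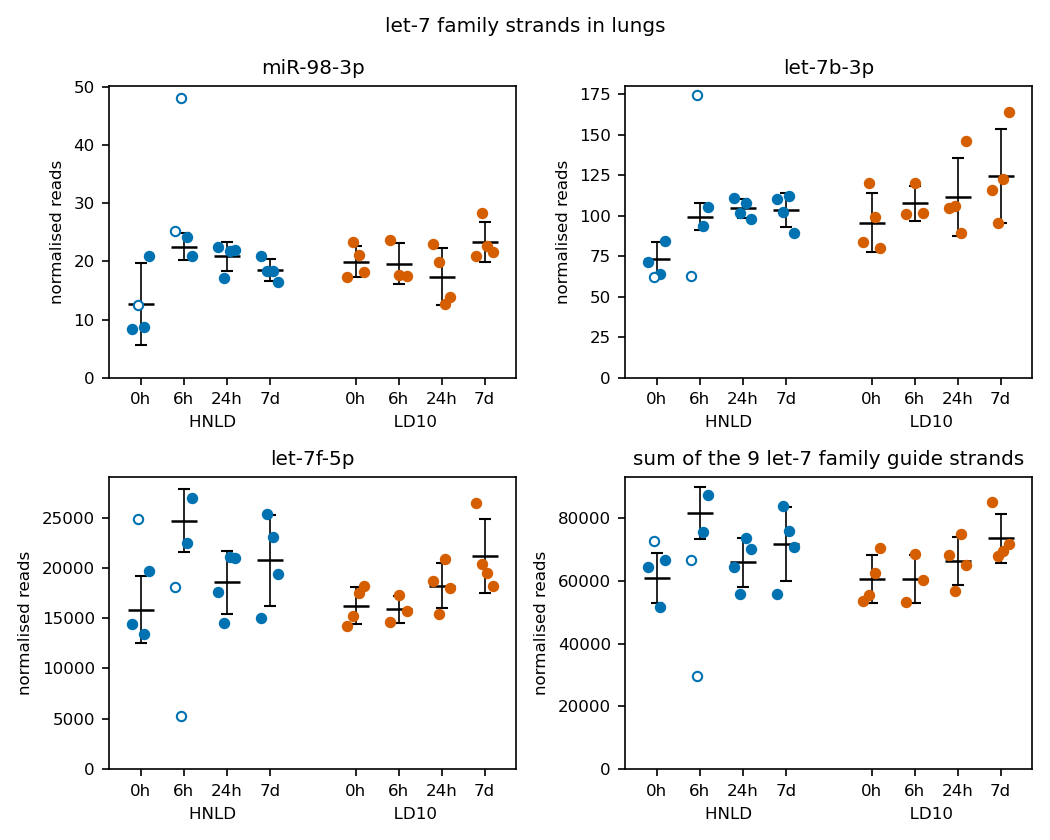
Normalised reads of miR-98-3p, let-7b-3p, let-7f-5p and of the sum of 9 let-7 family strands by time at HNLD (blue) and LD10 (orange). Points are mice, open points the libraries FP30, FP33 and FP38, and bars the mean ± SD of the filled points, and let-7b-3p lies above its 0h points in all 4 HNLD mice at 24h and at 7d, and miR-98-3p is flat at LD10.

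Among blood cell miRNAs, miR-223-3p, a strand of neutrophils and other myeloid cells, had the smallest p of the F test of any time at LD10. At 6h it stood at 703, 893 and 888 normalised reads, against 490, 386, 448 and 318 at 0h, so that every 6h mouse was above every 0h mouse, as was so for 1.47% of the 339 at LD10. At 24h it was 247, 461, 356 and 568, and at 7d 320, 278, 323 and 186. The 7d and 0h groups overlapped, as FP16 and FP27 stood just above the lowest 0h mouse, FP55. The log2 fold change against 0h was 1.02 ± 0.35 at 6h, -0.06 ± 0.33 at 24h and -0.58 ± 0.33 at 7d (SE; limma, adjusted p = 0.998 each), and the F test of any time at LD10 gave an adjusted p of 0.422 with all libraries. Leaving out the 3 HNLD libraries changes no LD10 value but narrows the estimate of the spread, and the F test then gave an adjusted p of 0.00596 with limma and 0.00201 with edgeR. At HNLD 6h, miR-223-3p stood at 253, 134, 578 and 391, against 302, 195, 444 and 373 at 0h, which overlapped. The fourth LD10 6h mouse, FPB2, whose library held 567528 reads and correlated at 0.949 with the lung median, had 362 normalised reads. With it added, the adjusted p of the F test was 0.996 with the other 31 libraries and 0.254 without the 3 (limma).

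miR-142a comes from a hairpin that is expressed in blood cells of all kinds, and neither of its arms passed the threshold at LD10. At LD10 7d, miR-142a-3p stood at 524, 346, 788 and 570 normalised reads, against 1038, 1051, 1059 and 872 at 0h, with no overlap, as was so for 2.06% of the 339 downward. At 24h it stood at 566, 842, 568 and 714, and at 6h at 763, 803 and 719, and every one of these later values was below every 0h value, as was so for 1.18% of the 339 at 24h and 1.77% at 6h. All 3 times were set against the same 0h mice. The fourth 6h mouse, FPB2, had 885.1 normalised reads, above the 872 of FP55 at 0h, so the 6h and 0h groups overlapped with it. With FPB2 the adjusted p of the F test at LD10 was 0.996, and 0.294 without the 3 libraries (limma). The log2 fold change at 7d was -0.91 ± 0.35 (SE; limma, adjusted p = 0.998), and adjusted p = 0.0683 without the 3 libraries and 0.00478 with library weights. The lowest 7d value was that of FP17, and without FP17 as well the log2 fold change was -0.70 (adjusted p = 0.494). At HNLD 7d, miR-142a-3p stood at 705, 703, 761 and 1021, against 819, 481, 627 and 965 at 0h, and its log2 fold change was 0.17 (-0.01 without the 3). With all libraries, miR-142a-5p, the more abundant arm, had the smallest unadjusted p among miRNAs lower at 6h in the mean of both doses (log2 fold change -0.71, adjusted p = 0.763, limma). Its 6h values were 3454, 1361, 4445 and 3314 at HNLD, against 6871, 5323, 4275 and 5462 at 0h, and 5891, 3168 and 5403 at LD10, against 8489, 7196, 6617 and 4909 at 0h. The 1361 was that of FP38, the library with a heart profile, and it enters the -0.71. For miR-142a-5p, FPB2 had 1627 normalised reads, below each of these LD10 0h values. With FPB2 the adjusted p of its F test at LD10 was 0.996, and 0.63 without the 3 libraries (limma).

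miR-150-5p, a miRNA of mature lymphocytes, stood at 2708, 931, 5422 and 3359 normalised reads at LD10 7d, against 6242, 6908, 7988 and 3794 at 0h. At LD10 6h it stood at 2504, 4232 and 2796 and at 24h at 3513, 4719, 1265 and 2616. FPB2, which is not among these 6h mice, had 6800 normalised reads, within the range of the 0h mice. The log2 fold changes were -0.96, -1.14 and -1.21 at 6h, 24h and 7d (limma, adjusted p = 0.998 each). The groups overlapped at each time because the 0h mouse FP55 was low. Of the 5 tested leukocyte strands, 5 had a log2 fold change below 0 at LD10 7d, where 58.4% of all 339 were above 0. Of these, 2 were lower at an unadjusted p under 0.05, where 1.47% of all 339 were, and 0 passed the adjusted threshold. The lowest LD10 7d values of miR-150-5p (931) and miR-142a-3p were both those of FP17. Their median there was -0.58, against 0.04 for all 339, and at HNLD 7d it was -0.12, against 0.05. At LD10 7d the 2 endothelial strands had a median log2 fold change of 0.09 and the 8 tested strands of the epithelial 200 family of -0.04.

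**Figure D4:**
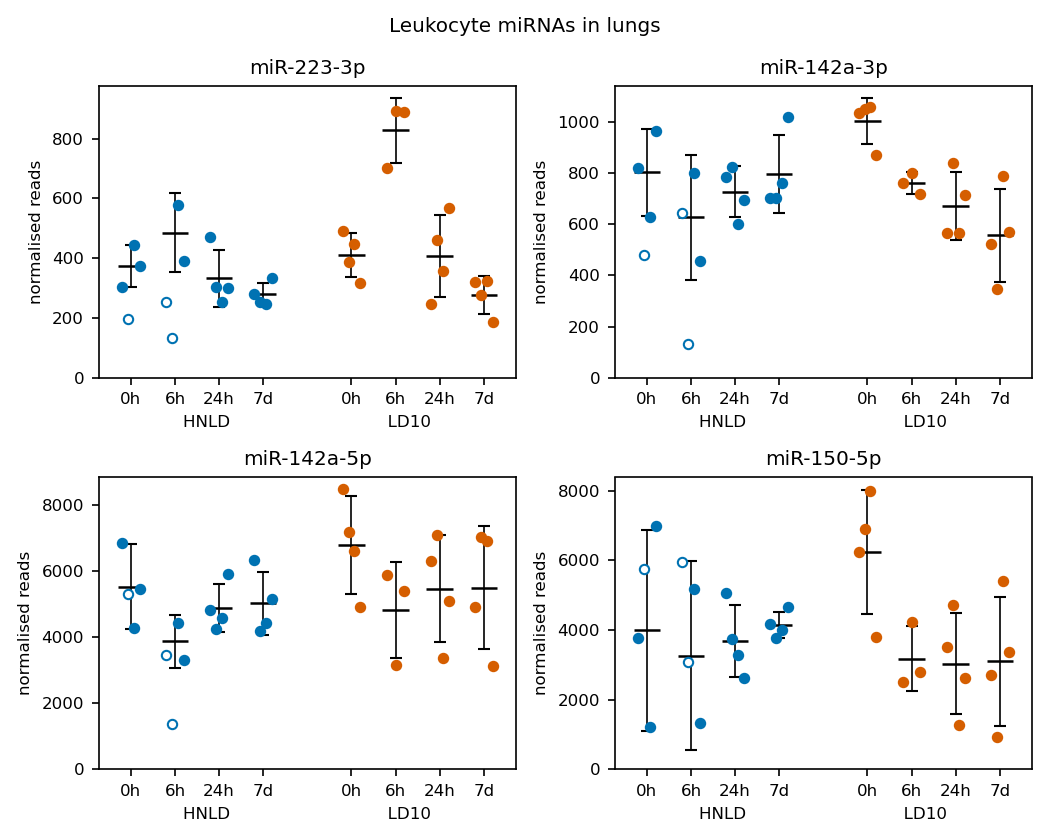
Normalised reads of miR-223-3p, miR-142a-3p, miR-142a-5p and miR-150-5p by time at HNLD (blue) and LD10 (orange), with points, open points and bars as in the plot of let-7 family strands. At LD10, miR-223-3p is at 703 to 893 at 6h and 318 to 490 at 0h, while miR-142a-3p is at 346 to 788 at 7d and 872 to 1059 at 0h.

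At 6h, 7 miRNAs were higher (2.06%) and 5 lower (1.47%) at an unadjusted p under 0.05 in the mean of both doses, and 2 of the named ones were far higher in FP38 than in the other mice. miR-215-5p stood at 790.5 normalised reads in FP38 and at 22.3 to 42.0 in the other HNLD 6h mice, against 12.4 to 16.9 at 0h. Its log2 fold change in the mean of both doses was 1.28 with all libraries and 0.52 without the 3. miR-486a-3p, from a hairpin expressed in red blood cells and muscle, stood at 237.3 in FP38 and at 27.2 to 49.0 in the other 3, and its log2 fold change was 0.76 with all libraries and 0.36 without the 3. miR-181a-2-3p and miR-674-3p had 0.50 and 0.32 (0.38 and 0.22 without the 3). On the lower side miR-362-3p had -0.41, with 35.1, 26.1 and 41.0 normalised reads at LD10 6h, against 45.5, 46.2, 43.3 and 43.3 at 0h. These groups, which do not include FPB2, did not overlap (1.77% of the 339 downward). miR-19b-3p, a member of the 17-92 cluster, had -0.26, and miR-592-5p, at 1.46 to 15.7 normalised reads per library, -0.93. None of these passed the adjusted threshold (limma, adjusted p = 0.798 each).

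At 24h only 3 of 339 miRNAs reached an unadjusted p under 0.05 in the mean of both doses, 2 higher (0.59%) and 1 lower (0.295%). The higher ones were let-7b-3p and miR-152-5p, and the lower one miR-7a-1-3p. miR-152-5p had a log2 fold change of 0.23, with 89.2, 108.3, 96.8 and 115.3 normalised reads at LD10 24h, against 96.2, 87.5, 88.3 and 94.0 at 0h. miR-7a-1-3p had -0.36, with 13.5, 8.31, 10.9 and 12.2 normalised reads at HNLD 24h, against 15.3, 12.4, 15.4 and 16.3 at 0h. miR-193b-3p, miR-181c-3p and miR-214-5p had log2 fold changes of 0.65, 0.24 and 0.27, and miR-1198-5p, miR-27a-5p and miR-374b-5p had -0.23, -0.34 and -0.34 (limma, adjusted p = 0.999 each).

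At 7d several of the lower miRNAs shared a seed. Of 6 tested strands with the seed AGCAGCA (the miR-15/16 family), 5 had a log2 fold change below 0 in the mean of both doses, and of 4 with the seed AAAGUGC (miR-17-5p, miR-20a-5p, miR-93-5p and miR-106b-5p), 4 did. Their medians were -0.23 and -0.22, against 0.05 for all 339. At an unadjusted p under 0.05, 2 and 1 of these strands were lower, where 1.77% of the 339 were. Inside HNLD, 4 of 6 and 4 of 4 were below 0, where 58.1% of the 339 were above 0. Inside LD10, 5 of 6 and 4 of 4 were below 0, where 58.4% were above 0. These counts include miR-15b-5p and miR-106b-5p, which were named for their small p at 7d. Strands of 1 library are not independent, so the counts are descriptions. miR-15b-5p stood at 189, 208, 179 and 219 normalised reads in HNLD mice at 7d, against 315, 257, 321 and 219 at 0h. In LD10 mice it stood at 219, 195, 231 and 214, against 281, 243, 242 and 211 at 0h. Its log2 fold change was -0.33 ± 0.12 (SE; limma, adjusted p = 0.728), -0.34 without the 3 libraries (adjusted p = 0.188) and -0.35 with library weights (adjusted p = 0.0216). miR-106b-5p stood at 228, 234, 215 and 288 in HNLD mice at 7d, against 296, 253, 439 and 334 at 0h, and at 254, 229, 299 and 217 in LD10 mice at 7d, against 276, 237, 314 and 296 at 0h. Its log2 fold change was -0.30 ± 0.12 (adjusted p = 0.728). The 7 tested strands of the 17-92 cluster, which shares miR-17-5p and miR-20a-5p with this seed group, had a median of -0.21, and without the 3 libraries 5 of 7 were lower at an unadjusted p under 0.05, where 7.67% of all 339 were. miR-92a-3p, the most abundant strand of the cluster, had a log2 fold change of opposite sign, 0.23 (limma, adjusted p = 0.754), and 0.31 without the 3 libraries. It stood at 3167, 7560, 8095 and 6717 normalised reads at HNLD 7d, against 3622, 6223, 3471 and 4986 at 0h, and at 5202, 4286, 4376 and 6061 at LD10 7d, against 4363, 4226, 4969 and 6184 at 0h. The median summed level of the cluster was 8161 at HNLD 7d, against 5467 at 0h, and 5781 at LD10 7d, against 5778 at 0h. miR-92a-1-5p from the same cluster had -0.55, with 17.7, 14.0, 13.2 and 18.1 normalised reads at HNLD 7d, against 20.4, 33.2, 17.1 and 28.8 at 0h. miR-33-3p and miR-592-5p, both scarce, had -0.49 and -0.66.

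miR-143-3p was among the 14 miRNAs that were higher at an unadjusted p under 0.05 at 7d in the mean of both doses. This strand, the most abundant smooth muscle miRNA here, stood at 85490, 232400, 201100 and 185800 normalised reads in HNLD mice at 7d, against 111500, 77110, 108500 and 101900 at 0h. In LD10 mice it stood at 150400, 196400, 97030 and 163400, against 77100, 70140, 78450 and 157200 at 0h. The groups overlapped at both doses, with FP24 and FP27 low at 7d and FP55 high at 0h. Its log2 fold change in the mean of both doses was 0.72 ± 0.30 (SE; limma, adjusted p = 0.728), and 0.66 without the 3 libraries (adjusted p = 0.192). miR-145a-5p, from the same hairpin cluster, had a log2 fold change of opposite sign, -0.39 (-0.48 without the 3), so the 2 abundant smooth muscle strands differed in direction. miR-151-3p had 0.29, with 5828, 6088, 5119 and 4445 normalised reads at LD10 7d, against 4575, 4242, 4040 and 3918 at 0h. Across the 28 libraries left without the 3, miR-143-3p (log2 values) correlated with 6 miRNAs that were chosen after their values were seen. Pearson r was 0.82 for let-7i-5p, 0.7 for miR-449a-5p and 0.65 for miR-146b-5p. It was -0.69 for miR-145a-5p, -0.6 for miR-142a-5p and -0.55 for miR-150-5p. These correlations pool all times, and none was computed inside a time. Inside HNLD and inside LD10, r kept its sign for each of the 6, but for miR-150-5p it was -0.25 and -0.76. The changes of these miRNAs at 7d are therefore not treated as separate observations. The cause was not tested.

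miR-146a-5p and miR-146b-5p, which are induced by NF-κB and dampen its signalling, had log2 fold changes of 0.68 and 0.74 at 7d in the mean of both doses (limma, adjusted p = 0.728 and 0.732), and neither reached an unadjusted p under 0.05. At LD10 7d miR-146b-5p stood at 1878, 5689, 1312 and 477 normalised reads, against 794, 727, 742 and 996 at 0h, and at HNLD 7d at 840, 1904, 1585 and 1571, against 1176, 543, 1695 and 947 at 0h. The groups overlapped at both doses. The 5689 was that of FP17, and without FP17 and the 3 libraries the log2 fold change of miR-146b-5p in the mean of both doses was 0.29 and that of miR-146a-5p 0.47. At 6h miR-146b-5p had -0.33 with all libraries and 0.19 without the 3, and FP38 held 90.4 normalised reads. miR-449a-5p, a multiciliated cell miRNA, had 0.56 at 7d, with 223, 202, 110 and 46 normalised reads at LD10 7d, against 42, 53, 78 and 207 at 0h (limma, adjusted p = 0.752). miR-21a-5p, the most abundant inflammatory strand, had 0.03 at 7d.

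FP17 (LD10 7d) also stood apart for the imprinted 12qF1 cluster, a large group of miRNAs expressed from the maternal chromosome. Its summed level was 10910 normalised reads in FP17 and 1374 to 3039 in the other libraries that did not stand apart. Of 14 tested members, 13 were higher at LD10 7d, with a median log2 fold change of 0.68, against 0.04 for all 339, and without FP17 and the 3 libraries 11 were higher with a median of 0.10, against 0.07. miR-411-5p stood at 411, 1651, 350 and 404 normalised reads at LD10 7d, against 362, 344, 315 and 379 at 0h. miR-127-3p stood at 723, 4979, 616 and 748, against 797, 630, 483 and 682 at 0h. FP17 was also the highest of the 28 libraries for the muscle miRNAs, at 13850 normalised reads, and for the inflammation feedback list, at 33310, against at most 9508 and 28430 in the other 27. The part of these tissue markers in the 7d values was not tested. miR-299a-3p, from the same chromosome region, had a log2 fold change of 0.74 in the mean of both doses at 7d, with 35.6 normalised reads in FP17 and 6.24 to 9.58 in the other LD10 7d mice.

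With library weights, 39 of 339 miRNAs (11.5%) passed the threshold at 7d in the mean of both doses, 27 higher and 12 lower, against 0 without weights. Among the 27 that rose were let-7a-5p, let-7f-5p, let-7i-5p, miR-143-3p, miR-146a-5p, miR-146b-5p, miR-22-3p and miR-30d-5p, and among the 12 that fell miR-15b-5p, miR-195a-5p, miR-145a-5p, miR-142a-3p, miR-342-3p and miR-451a. The weights were estimated from the same values and lowered FP38 to 0.0441, FP30 to 0.124, FP17 to 0.254 and FP33 to 0.328. The 20 miRNAs at an unadjusted p under 0.05 in the unweighted fit were 14 higher (4.13%) and 6 lower (1.77%). With scaling factors computed anew there were 6 higher and 13 lower, with edgeR 16 higher and 24 lower, and without libraries of low depth 13 higher and 19 lower. There were 29 higher and 26 lower without the 3 libraries.

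**Figure D5:**
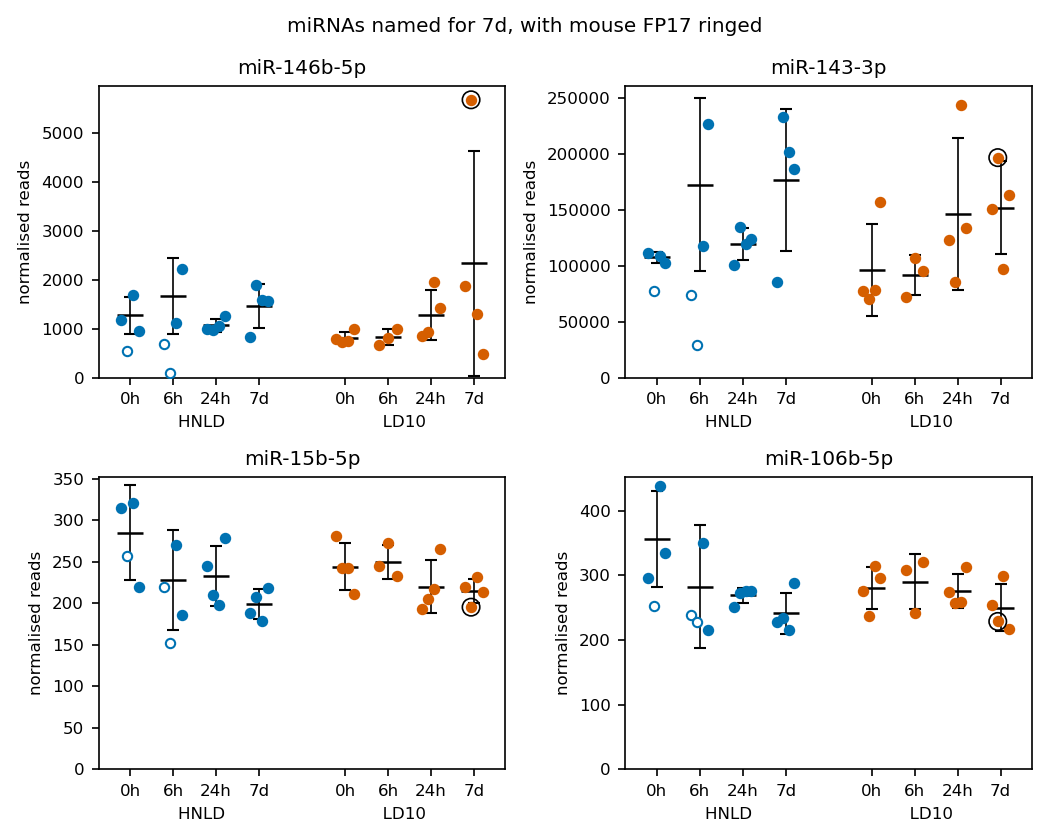
Normalised reads of miR-146b-5p, miR-143-3p, miR-15b-5p and miR-106b-5p by time at HNLD (blue) and LD10 (orange), with points, open points and bars as in the plot of let-7 family strands and mouse FP17 ringed. miR-146b-5p reaches 5689 in FP17 and 477 to 1878 in the other LD10 7d mice, while miR-15b-5p is at 179 to 231 in the 7d mice of both doses.

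The other lists for this tissue are given by their medians, beside medians of 0, 0.03 and 0.05 for all 339 at 6h, 24h and 7d. miR-210-3p, the main hypoxia miRNA, stood at 174, 133, 171 and 235 normalised reads at LD10 7d and at 180, 180 and 172 at 6h, against 156, 142, 187 and 239 at 0h. Its log2 fold change in the mean of both doses was 0.07, 0.08 and 0.06 at 6h, 24h and 7d with all libraries, and -0.05 at 6h without the 3. The 5 tested strands of multiciliated cells had medians of 0.14 and 0.11 at 24h and 7d. At 6h their median was -0.49 with all libraries and -0.02 without the 3, FP38 holding 645 normalised reads for the list and the other 28 libraries 5975 to 10610. Of 11 clock-linked miRNAs, 1 was lower at an unadjusted p under 0.05 at 6h (miR-142a-3p, where 1.47% of all 339 were lower) and 0 at 24h and 7d. The medians of the 29 family and the fibroblast list lay between -0.07 and 0.10 at the 3 times, and that of the miR-322 cluster between 0.02 and 0.08. The 7 muscle strands had medians of 0.82, 0.50 and 0.49 with all libraries and 0.14, 0.34 and 0.38 without the 3. The red blood cell list summed to 28900 to 105400 normalised reads in the 28 libraries, and miR-451a, its defining member, was high in FP25 and FP32 (18020 and 26960) at HNLD 0h, against 4615 to 7898 at HNLD 7d. None of these lists had a member that passed the adjusted threshold (limma).

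Whether the time courses differed between LD10 and HNLD was tested for all 3 times at once. With limma's F test 0 of 339 miRNAs passed and 4 had an unadjusted p under 0.05, and edgeR called 0. The 5 with the smallest p were miR-30f, miR-98-3p, miR-223-3p, miR-142a-3p and miR-340-3p. miR-30f had log2 fold changes of 0.58 at LD10 and -0.55 at HNLD at 24h, with 29.6, 18.3, 28.7 and 25.8 normalised reads at LD10 24h, against 19.9, 13.6, 17.3 and 15.9 at 0h. miR-340-3p had 0.51 at LD10 and -0.25 at HNLD at 6h, with 39.9, 39.1 and 39.1 at LD10 6h (FPB2 not included), against 41.0, 31.6, 25.2 and 17.3 at 0h.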

How the data were processed

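Small RNA libraries were made by the authors from lung total RNA, sequenced, filtered and mapped to mature mouse miRNAs of miRBase (mm9), as the paper states. The paper names Bowtie 1.0.0 after a second mapping, to the mouse genome (mm9), and the processing notes list Bowtie 1.0.0 and mm9. The deposited values are a normalised signal, reads divided by a TMM factor per library. Every low value (100%) gave a whole read within 0.1 read, so reads were recovered, and 1 read stood for 0.178 to 4.15 normalised reads. Groups came from the labels, and 0 columns were left out. limma 3.58.1 (trend, R 4.3.3) was fitted to log2(value + 1) with 8 group means after a filter of at least 10 normalised reads in at least 4 libraries. Alternatives were edgeR 4.0.16 on the recovered reads, another pseudocount (0.25), no filter, new TMM factors, library weights, all lung libraries, and leaving out libraries. Leaving out the 3 libraries that stood apart was chosen after seeing the data. The 339 tested miRNAs held at least 99.7% of each library's signal. The closest pair of libraries in each group differed beyond sampling noise (chi-square per degree of freedom of at least 34.1). miRNAs were named by rule: those called, up to 10 per direction; the 5 higher and 5 lower with the smallest p per time; the 5 smallest p of time by dose; called or the 2 most abundant list members; miR-146b-5p and miR-449a-5p. Others were chosen after their values were seen. The members and lists were chosen with earlier results of these data known. The test was checked on simulated data with large changes and independent noise for each miRNA. That check does not cover small changes, miRNAs that vary together or libraries that stand apart. The libraries of cortex and heart served only for the tissue profiles.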

Additional observations from a re-analysis of the deposited data

Results flagged for a closer look

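In 301 groups of 4 mice tested for 1 value far from the other 3, 26 were picked out, and chance flags about 1 in 20 groups. For FP38 (HNLD 6h, the library labelled lungs with a heart profile), the highest values were miR-98-3p at 48.08, miR-215-5p at 790.5, miR-486a-3p at 237.3, miR-193b-3p at 91.41 and miR-7a-1-3p at 25.36 normalised reads, and miR-672-5p was the lowest at 0. For FP30 (HNLD 0h), the total of 196900 reads and the correlation of 0.928 with the lung median were the lowest, as was miR-101a-5p at 8.291 normalised reads, and miR-672-5p was the highest at 49.75. For FP17 (LD10 7d), the correlation of 0.972 with the lung median was the lowest, and miR-299a-3p at 35.6 and miR-411-5p at 1651 normalised reads were the highest. For FP55 (LD10 0h), miR-215-5p at 8.656 and miR-142a-3p at 871.7 were the lowest and miR-143-3p at 157200 normalised reads the highest. Single values far from the other 3 were also miR-181c-3p in FP32 (HNLD 0h) at 187.6, miR-362-3p in FP33 (HNLD 6h) at 16.8, miR-98-3p in FP54 (HNLD 24h) at 17.22, miR-106b-5p and miR-21a-5p in FP39 (HNLD 24h) at 251.8 and 18590, miR-340-3p in FP57 (HNLD 24h) at 27.33, miR-145a-5p in FP24 (HNLD 7d) at 2602, miR-215-5p and miR-672-5p in FP51 (LD10 24h) at 8.201 and 35.68 normalised reads and the correlation of FP20 (LD10 0h) at 0.994. The cause was not tested.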

How the results depend on the processing

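The count of calls at HNLD 6h was 1, and it was 2 with no filter and with all lung libraries in the fit, 6 with edgeR, and 0 with library weights, without libraries of low depth, and without the libraries that stood apart (FP30, FP33 and FP38), also when FP17 was left out, edgeR was used or weights were added. With 1 mouse left out it ranged from 0 to 9, with 0 without FP25, FP32 or FP38, 9 without FP30 and 4 without FP49. At HNLD 24h weights without the 3 libraries gave 2 calls, and at HNLD 7d weights gave 1, and 28 without the 3. At LD10 6h no filter gave 3 calls (miR-129b-5p, miR-7031-5p and miR-7067-3p). At LD10 7d weights gave 7, and 8 without the 3. At 7d in the mean of both doses weights gave 39, and 45 without the 3. The F test at HNLD gave 8 with edgeR and 0 to 1 with 1 mouse left out (miR-98-3p without FP47). The F test at LD10 gave 2 with no filter (miR-129b-5p and miR-7031-5p), 2 with weights (miR-142a-3p and miR-223-3p, also without the 3), 1, miR-223-3p, with all lung libraries and without the 3 (also without FP17, and with edgeR), and 0 to 1 with 1 mouse left out (miR-223-3p without FP38). The cause of these differences was not tested. For 59 fold changes of single miRNAs given in the text 2537 alternative values were computed, of which 9 lost a call (miR-98-3p at HNLD 6h), 32 gained one, each with library weights, and 24 changed sign without a call on either side. These were miR-146b-5p at 6h (7 values), miR-142a-3p at HNLD 7d (5), miR-210-3p at 6h (5) and 7d (1), miR-21a-5p at 7d (4) and miR-223-3p at LD10 24h (2). Leaving out FP30, FP33 and FP38, or FP17, was chosen after seeing the data. No paired analysis was possible because the mice differ between groups and replicate numbers follow accession order only. The p-values measure the spread between single mice, and groups of 3 or 4 limit what could be detected, as does the depth of FP30, where 1 read stood for 4.15 normalised reads.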

Other observations

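Both miRNAs whose groups did not overlap at either dose at 7d without FP30, FP33 and FP38 were scarce. miR-672-5p stood at 32.6, 26.3, 28.2 and 25.6 normalised reads at LD10 7d, against 16.2, 18.6, 21.9 and 21.3 at 0h, and at 23.1, 26.7, 24.6 and 29.9 at HNLD 7d, against 19.0, 18.8 and 14.4 in FP25, FP32 and FP47 at 0h and 49.8 in FP30. Without the 3 libraries its log2 fold change in the mean of both doses was 0.54 (limma, adjusted p = 0.171), and with all libraries 0.35 (adjusted p = 0.777). miR-101a-5p stood at 24.0, 19.4, 22.1 and 23.4 at LD10 7d, against 33.5, 32.6, 26.0 and 30.0 at 0h, and at 27.4, 19.6, 27.1 and 24.5 at HNLD 7d, against 31.2, 34.2 and 32.9 in FP25, FP32 and FP47 at 0h and 8.29 in FP30. Without the 3 libraries its log2 fold change was -0.42 (limma, adjusted p = 0.171), and with all libraries -0.19 (adjusted p = 0.777).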
